A study of Mus musculus with 16 samples.

Results

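The chemokine gene Ccl21a and 6 genes of lymphatic vessels and their growth (Lyve1, Prox1, Flt4, Mmrn1, Vegfc and Vegfd) were taken by gene symbol from a bulk RNA-seq table of tumour-bearing mouse lung, where they are 7 of 30095 listed genes. Ccl21a had been singled out for its difference between 8 Gy and 0 Gy over both antibodies, and the others were chosen by their role; so every member's value from that comparison is a description, with no p-value. The lungs were from C57BL/6 mice bearing tumours of HKP1 (a murine lung adenocarcinoma line), and each library mixes RNA of tumour, resident lung and infiltrating cells. Anti-PD-1, which blocks an inhibitory receptor of T cells, was set against IgG, its control antibody, and the title of the series concerns radiation, club cells and checkpoint blockade. Lungs were collected 24 to 48 h after radiotherapy, and 1 library pooled 3 to 4 mice.

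The groups were anti-PD-1 with 0 Gy (2 libraries), IgG with 0 Gy (3), anti-PD-1 with 4 Gy (3), IgG with 4 Gy (2), anti-PD-1 with 8 Gy (3) and IgG with 8 Gy (3), or 5, 5 and 6 libraries at 0, 4 and 8 Gy. All 6 groups shared the strain, the tumour line and a collected lung with tumour, and a lung without tumour is not analysed here. The sources used here do not state the age or sex of the mice. Lung identity was checked on Sftpc, the surfactant protein C gene, which was at 442 to 8850 CPM, and on Scgb1a1, the club cell secretoglobin gene, which was at 414 to 12300 CPM. CPM are reads scaled to a common library total.

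Lymphatic vessels drain fluid and carry immune cells from tissue to lymph nodes. Their endothelium secretes CCL21, whose receptor CCR7 guides dendritic cells and T cells into the vessels and on to the node. PROX1 sets and keeps lymphatic endothelial identity, and VEGF-C and VEGF-D make these vessels grow through VEGFR-3, the product of Flt4. LYVE1, a hyaluronan receptor, and MMRN1, a secreted multimerin, are used as markers of this endothelium. None of these genes is exclusive to it: LYVE1 is also found on tissue macrophages, VEGFR-3 on some blood capillaries, and CCL21 is made by stromal cells and high endothelial venules of lymph nodes.

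Mouse Ccl21a lies in a cluster of near-identical copies on chromosome 4. In mm10 with GENCODE M21 it spans chr4:42772860-42773993 on the minus strand. The table lists 4 copies, Ccl21b, Gm10591, Gm13304 and Gm21541. Over the coding sequence of 402 bases each copy matched Ccl21a at 400 bases, and each differed by T84A and C194T, counted from 1 at the A of the start codon with the base of Ccl21a first. The stretch from base 54 to base 224, which holds both differences, is shown because it is all that tells the coding sequences apart; capitals mark the 2 differing bases, and Ccl21b, Gm10591 and Gm21541 read as Gm13304 there.
Ccl21a: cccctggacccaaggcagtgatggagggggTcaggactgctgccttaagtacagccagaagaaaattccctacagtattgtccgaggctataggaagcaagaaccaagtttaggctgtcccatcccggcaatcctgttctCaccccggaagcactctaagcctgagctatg
Gm13304: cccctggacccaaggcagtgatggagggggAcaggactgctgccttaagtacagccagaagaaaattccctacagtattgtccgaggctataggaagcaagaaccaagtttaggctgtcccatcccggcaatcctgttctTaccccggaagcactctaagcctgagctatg
The 250 bases before the start of Ccl21a (RefSeq, GRCm38.p6) matched those before Gm13304 and those before Gm10591 at 247 bases, with 2 mismatches each. A read that covers neither differing base matches all 5 coding sequences, so the row named Ccl21a is read here together with its copies.

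A pair of libraries stood apart from the rest. On the first principal component of all tested genes, replicates 2 and 3 of anti-PD-1 at 4 Gy were at 81.5 and 98.3, against -51.9 to 46.8 in the other 14. They listed 6086 and 5315 genes with no read, against 2273 to 3851 in the others. Results at 4 Gy are therefore also given without them where that ends a call or moves a value by over 1.5 times. In the table a single read was worth 0.0155 to 0.0418 CPM, so 3 reads are at most 0.125 CPM. Mitochondrial genes held 0.899 to 3.23% of the signal at 0 Gy, 3.76 to 5.91% at 4 Gy and 1.53 to 7.53% at 8 Gy. Running numbers in the titles were 13 to 17 at 0 Gy, 26 to 30 at 4 Gy and 31 to 36 at 8 Gy, so if they mark separate preparations, preparation and dose cannot be told apart.

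Ccl21a was low in every library at 8 Gy and highest at 4 Gy. At 0 Gy Ccl21a was at 12.8 and 13.5 CPM with anti-PD-1 and at 14.6, 11.1 and 8.77 CPM with IgG. At 4 Gy Ccl21a was at 16.8, 17.1 and 14.9 CPM with anti-PD-1 and at 21.1 and 28.8 CPM with IgG. At 8 Gy Ccl21a was at 1.61, 3.87 and 5.00 CPM with anti-PD-1 and at 1.70, 1.52 and 1.51 CPM with IgG. The highest 8 Gy library was thus below the lowest 0 Gy library, and the lowest 4 Gy library was just above the highest 0 Gy library. In log2(CPM + 0.5) the differences ± SE were -2.19 ± 0.21 for 8 Gy minus 0 Gy (a fold of 0.219), 0.70 ± 0.23 for 4 Gy minus 0 Gy (a fold of 1.62) and -2.89 ± 0.21 for 8 Gy minus 4 Gy (a fold of 0.135). All 3 rest on libraries that served to choose the gene or share them with that choice, so none carries a p-value. For scale, of all 17546 tested genes 4.91% were lower without overlap at 8 Gy than at 0 Gy, 1.73% higher without overlap at 4 Gy than at 0 Gy, and 6.6% lower without overlap at 8 Gy than at 4 Gy. The difference of 8 Gy minus 0 Gy ran from -2.39 to -1.94 over 25 other settings, the removal of each library included. Without the outlying pair 4 Gy minus 0 Gy was 0.72 and 8 Gy minus 4 Gy was -2.91. In a bulk library, fewer cells of a type and less RNA per cell cannot be told apart.

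**Figure D1:**
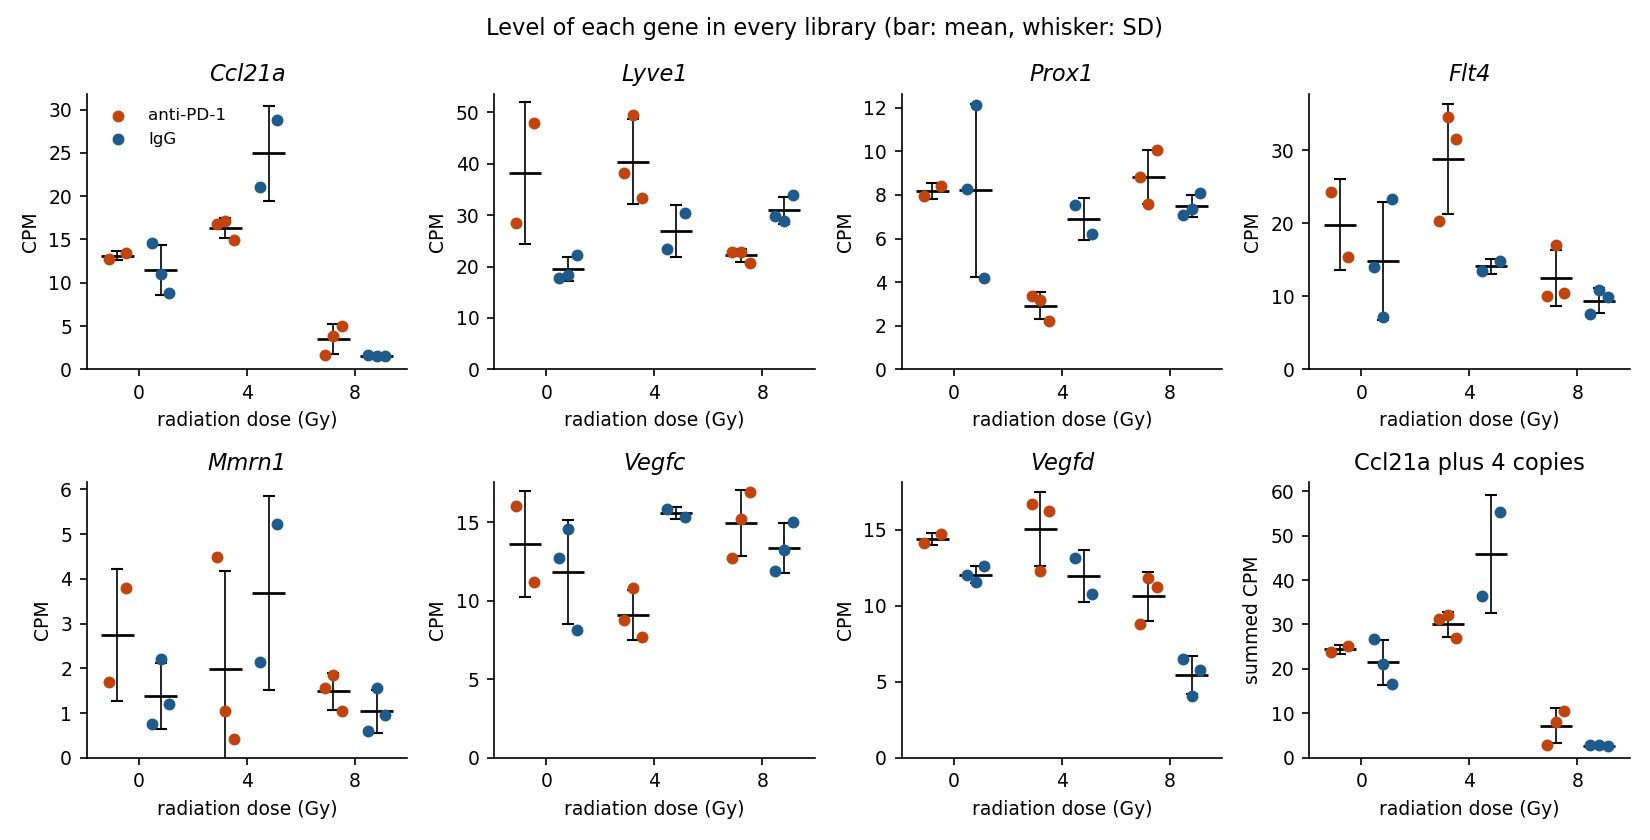
CPM (y axes, from 0) of the 7 genes and of Ccl21a summed with its 4 copies, by radiation dose in Gy (x axes), with 1 point per library, anti-PD-1 left of IgG; bars are group means and whiskers SD. Ccl21a sits between 1.51 and 5.00 CPM at 8 Gy and at 8.77 CPM or more in all other libraries, while the other genes overlap between doses.

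Group by group, Ccl21a averaged 25 ± 5.46 CPM with IgG at 4 Gy (SD, n = 2), 16.3 ± 1.17 CPM with anti-PD-1 at 4 Gy (n = 3), 13.1 ± 0.502 CPM with anti-PD-1 at 0 Gy (n = 2) and 11.5 ± 2.93 CPM with IgG at 0 Gy (n = 3). At 8 Gy it averaged 3.49 ± 1.72 CPM with anti-PD-1 and 1.57 ± 0.106 CPM with IgG (n = 3 each). In this order the anti-PD-1 and IgG libraries overlapped at 0 Gy and at 8 Gy, and each other pair of neighbours did not overlap. Within each antibody the difference of 8 Gy minus 0 Gy was -1.88 with anti-PD-1 and -2.5 with IgG, and that of 4 Gy minus 0 Gy was 0.30 with anti-PD-1 and 1.10 with IgG.

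The copies followed the same order of doses. Gm13304 had 7.46 and 7.89 CPM with anti-PD-1 and 8.25, 6.44 and 4.93 CPM with IgG at 0 Gy. At 4 Gy Gm13304 had 9.77, 10.2 and 8.11 CPM with anti-PD-1 and 10.4 and 17.3 CPM with IgG. At 8 Gy Gm13304 had 0.850, 2.15 and 3.78 CPM with anti-PD-1 and 0.738, 0.948 and 0.740 CPM with IgG. Its 8 Gy libraries were all below its 0 Gy and 4 Gy libraries. The rows of Ccl21b and Gm10591 were identical in 16 of 16 libraries, and Gm21541 stood at 0.945 of Ccl21b in every library, so these 3 rows are not separate measurements. Ccl21b itself was at 0.999 to 1.31 CPM at 0 Gy, 1.29 to 3.13 CPM at 4 Gy and 0.118 to 0.694 CPM at 8 Gy. The 4 copies had differences of 8 Gy minus 4 Gy of -2.70 (Gm13304), -1.61 (Ccl21b and Gm10591) and -1.58 (Gm21541). Gm13304 over Ccl21a ran from 0.435 to 0.756, and both of these extremes were at 8 Gy, where the levels are lowest.

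Summed over the 5 rows, the signal was 16.6 to 26.7 CPM at 0 Gy (mean 22.7 ± 3.94, n = 5), 26.9 to 55.3 CPM at 4 Gy (36.4 ± 11.1, n = 5) and 2.59 to 10.6 CPM at 8 Gy (4.97 ± 3.48, n = 6). The doses did not overlap in this sum. Its log2 differences were -2.30 for 8 Gy minus 0 Gy, 0.68 for 4 Gy minus 0 Gy and -2.98 for 8 Gy minus 4 Gy, close to those of Ccl21a alone. Ccl21a made up 47.4 to 61% of the sum. The dose pattern is thus that of the cluster as counted, and the table does not show which copy the reads came from. On the other strand the span of Ccl21a overlaps 4930578G10Rik, which was at no more than 0.0643 CPM in any library.

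**Figure D2:**
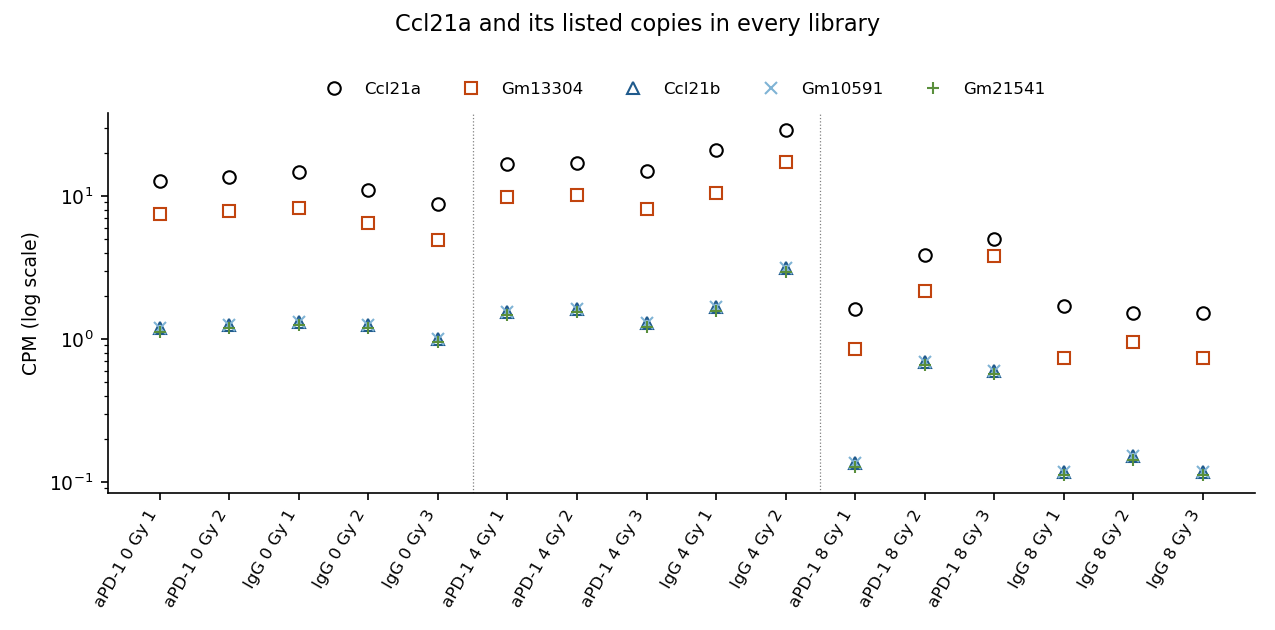
CPM on a log scale (y axis) of Ccl21a and the 4 listed copies in each library (x axis; aPD-1 is anti-PD-1, the last digit is the replicate, dotted lines part the doses). All 5 rows are lowest at 8 Gy, and Ccl21b and Gm10591 coincide in 16 of 16 libraries.

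Lyve1, which lies at chr7:110850607-110863239 on the minus strand, differed in opposite directions between 8 Gy and 0 Gy under the 2 antibodies. At 0 Gy Lyve1 was at 28.4 and 47.9 CPM with anti-PD-1 and at 17.9, 18.4 and 22.3 CPM with IgG. At 4 Gy Lyve1 was at 38.3, 49.5 and 33.4 CPM with anti-PD-1 and at 23.4 and 30.5 CPM with IgG. At 8 Gy Lyve1 was at 22.9, 22.9 and 20.7 CPM with anti-PD-1 and at 29.9, 28.9 and 33.9 CPM with IgG. Anti-PD-1 libraries were all above IgG libraries at 0 and 4 Gy and all below them at 8 Gy. The difference of 8 Gy minus 0 Gy was -0.72 with anti-PD-1 and 0.65 with IgG, without overlap in either (24.4% of all tested genes were lower without overlap with anti-PD-1, and 5.37% higher with IgG), so that over both antibodies it was only -0.04 ± 0.14.

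For Lyve1 the test of the difference between these 2 dose differences, the interaction of antibody and dose, gave -1.38 ± 0.29 in log2 with an unadjusted p of 3e-04 and a limma adjusted p of 0.366. It did not pass the threshold of 0.05, which 0 of 17546 genes passed in that interaction (0%), although 598 genes had an unadjusted p under 0.05. Within doses, limma gave anti-PD-1 minus IgG as 0.91 ± 0.22 at 0 Gy (adjusted p = 0.101), 0.57 ± 0.22 at 4 Gy (adjusted p = 0.0785) and -0.47 ± 0.19 at 8 Gy (adjusted p = 0.351). None of these passed the threshold. Such separation of the antibodies was common: 10.7% of all tested genes were higher without overlap with anti-PD-1 at 0 Gy and 27% at 4 Gy, and 5.94% were lower without overlap at 8 Gy. Because LYVE1 is also a macrophage protein, 12 interstitial macrophage markers such as Mrc1, Folr2 and the C1q genes were summed. Their sum was 1390 to 1640 CPM with anti-PD-1 and 1900 to 2100 CPM with IgG at 0 Gy, 1980 to 2490 CPM with anti-PD-1 and 1730 to 2440 CPM with IgG at 4 Gy, and 2310 to 2350 CPM with anti-PD-1 and 2100 to 3050 CPM with IgG at 8 Gy. The part of these cells in the Lyve1 values was not tested.

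Mmrn1 (chr6:60924976-60989378, plus strand) had the lowest level per length of the 7 genes and a wide spread within groups. It was at 1.70 and 3.79 CPM with anti-PD-1 and 0.752, 2.20 and 1.20 CPM with IgG at 0 Gy. At 4 Gy Mmrn1 was at 4.5, 1.05 and 0.415 CPM with anti-PD-1 and 2.14 and 5.23 CPM with IgG. At 8 Gy Mmrn1 was at 1.57, 1.85 and 1.04 CPM with anti-PD-1 and 0.604, 1.56 and 0.964 CPM with IgG. Every group overlapped its neighbour in the order of means, and anti-PD-1 at 4 Gy alone ran from 0.415 to 4.5 CPM. limma gave differences of 0.22 ± 0.42 for 4 Gy minus 0 Gy (adjusted p = 0.715) and -0.68 ± 0.40 for 8 Gy minus 4 Gy (adjusted p = 0.196). Without the outlying pair these were 0.91 ± 0.37 and -1.37 ± 0.35. The anti-PD-1 group at 4 Gy then rested on replicate 1 alone, its highest library at 4.5 CPM. Without replicate 1 instead, 4 Gy minus 0 Gy was -0.13. Whether Mmrn1 was called for 8 Gy against 4 Gy thus turned on which anti-PD-1 libraries at 4 Gy were kept.

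Prox1, the transcription factor gene at chr1:190118035-190170714 on the minus strand, was lowest in the anti-PD-1 libraries at 4 Gy. At 0 Gy Prox1 was at 7.94 and 8.43 CPM with anti-PD-1 and at 8.29, 12.1 and 4.21 CPM with IgG. At 4 Gy Prox1 was at 3.38, 3.17 and 2.24 CPM with anti-PD-1 and at 7.56 and 6.20 CPM with IgG. At 8 Gy Prox1 was at 8.81, 7.60 and 10.1 CPM with anti-PD-1 and at 7.06, 7.34 and 8.07 CPM with IgG. The 3 anti-PD-1 libraries at 4 Gy were below every other library, and the remaining 5 groups overlapped their neighbours in the order of means.

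By limma, Prox1 fell by 0.74 ± 0.22 in log2 at 4 Gy against 0 Gy (adjusted p = 0.0368) and was 0.79 ± 0.21 higher at 8 Gy than at 4 Gy (adjusted p = 0.0125). Within 4 Gy anti-PD-1 minus IgG was -1.12 ± 0.31 (adjusted p = 0.0381), and 25.8% of all tested genes were lower there without overlap. That call was lost in 9 of 24 other settings (adjusted p up to 0.655). The first call was lost in 16 of 25 other settings, with adjusted p from 0.00227 to 0.224 over them, and came to -0.65 without the outlying pair (adjusted p = 0.224). The call for 8 Gy against 4 Gy was lost without the outlying pair (adjusted p = 0.101) and without replicate 2 of IgG at 4 Gy (adjusted p = 0.0574). Replicate 1 of anti-PD-1 at 4 Gy, which is not of the outlying pair, was also low, at 3.38 CPM. Within each antibody the difference of 4 Gy minus 0 Gy was -1.36 with anti-PD-1 and -0.13 with IgG. Between 8 Gy and 0 Gy the difference of Prox1 was 0.04 ± 0.21. The span overlaps the antisense gene Prox1os, which was at 0.0167 to 0.303 CPM.

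Flt4, the gene of the receptor VEGFR-3 at chr11:49609263-49652739 on the plus strand, was highest with anti-PD-1 at 4 Gy. At 0 Gy Flt4 was at 24.2 and 15.4 CPM with anti-PD-1 and at 14, 7.14 and 23.3 CPM with IgG. At 4 Gy Flt4 was at 20.3, 34.5 and 31.6 CPM with anti-PD-1 and at 13.4 and 14.8 CPM with IgG. At 8 Gy Flt4 was at 10.1, 17 and 10.5 CPM with anti-PD-1 and at 7.52, 10.9 and 9.87 CPM with IgG. Neighbouring groups in the order of means overlapped throughout. By limma, Flt4 fell by 0.87 ± 0.26 in log2 at 8 Gy against 4 Gy (adjusted p = 0.0209). The same difference was -0.64 without the outlying pair (adjusted p = 0.205), and the call was also lost without replicate 2 of anti-PD-1 at 4 Gy, either IgG library at 4 Gy, or replicate 1 of anti-PD-1 at 8 Gy (adjusted p from 0.0504 to 0.0728). The difference of 4 Gy minus 0 Gy was 0.30 ± 0.28 (adjusted p = 0.428), or 0.07 without the pair (adjusted p = 0.92), and that of 8 Gy minus 0 Gy was -0.57 ± 0.26.

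Blood endothelial markers varied beside Flt4. The summed level of 12 such genes, Pecam1, Cdh5 and Cldn5 among them, was 195 to 649 CPM at 0 Gy, 506 to 1060 CPM at 4 Gy and 192 to 364 CPM at 8 Gy. At 4 Gy it was 875 to 1060 CPM with anti-PD-1 and 506 to 616 CPM with IgG, the same order as Flt4. At 8 Gy the sum was 192 to 283 CPM with anti-PD-1 and 223 to 364 CPM with IgG. Its medians there, 203 and 264 CPM, were in the other order from the Flt4 means of 12.5 and 9.42 CPM. At 0 Gy the sum was 324 to 519 CPM with anti-PD-1 and 195 to 649 CPM with IgG. The part of blood vessels in the Flt4 values was not tested.

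Vegfd (chrX:164373378-164402650, plus strand), a ligand gene for VEGFR-3 also known as Figf, was low at 8 Gy, most of all with IgG. At 0 Gy Vegfd was at 14.1 and 14.7 CPM with anti-PD-1 and at 12.0, 11.5 and 12.6 CPM with IgG. At 4 Gy Vegfd was at 16.7, 12.3 and 16.2 CPM with anti-PD-1 and at 13.2 and 10.8 CPM with IgG. At 8 Gy Vegfd was at 8.81, 11.8 and 11.3 CPM with anti-PD-1 and at 6.49, 4.06 and 5.75 CPM with IgG. The IgG libraries at 8 Gy were below all others, and the anti-PD-1 libraries at 8 Gy overlapped both groups with IgG at the lower doses. Vegfd fell by 0.78 ± 0.14 in log2 at 8 Gy against 4 Gy (limma adjusted p = 0.00153). Adjusted p stayed between 0.000928 and 0.014 in all 25 other settings for this comparison, removal of the outlying pair included. The difference of 8 Gy minus 0 Gy was -0.77 ± 0.14 over both antibodies, -0.43 with anti-PD-1 and -1.10 with IgG, while that of 4 Gy minus 0 Gy was 0.02 ± 0.15 (adjusted p = 0.944).

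Vegfd was higher with anti-PD-1 than with IgG at 8 Gy in 3 of 3 libraries (as were 17.6% of all tested genes without overlap). The difference of 0.92 ± 0.19 had a limma adjusted p of 0.13. Without replicate 1 of anti-PD-1 the adjusted p was 0.0456, in a fit that called 95 genes of the whole table, against 1 with that library. Over all doses the Vegfd difference was 0.49 ± 0.12 (adjusted p = 0.0675), and the interaction of antibody and dose from 0 to 8 Gy was 0.67 ± 0.28 (adjusted p = 0.997). Lung fibroblast markers, 12 genes such as Col1a1, Pdgfra and Tcf21, summed to 1480 to 2360 CPM at 0 Gy, 1170 to 1980 CPM at 4 Gy and 879 to 1510 CPM at 8 Gy. At 8 Gy the fibroblast sum was 911 to 1510 CPM with anti-PD-1 and 879 to 932 CPM with IgG. The part of fibroblasts in the Vegfd values was not tested.

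Vegfc (chr8:54077606-54187096, plus strand), the other ligand gene, had small differences between doses. At 0 Gy Vegfc was at 16 and 11.2 CPM with anti-PD-1 and at 12.7, 14.6 and 8.14 CPM with IgG. At 4 Gy Vegfc was at 8.77, 10.8 and 7.70 CPM with anti-PD-1 and at 15.8 and 15.3 CPM with IgG. At 8 Gy Vegfc was at 12.7, 15.2 and 16.9 CPM with anti-PD-1 and at 11.9, 13.2 and 15 CPM with IgG. Neighbouring groups overlapped throughout, yet anti-PD-1 libraries were all below IgG libraries at 4 Gy, as they were for 25.8% of all tested genes. Anti-PD-1 libraries at 4 Gy were all below those at 0 Gy (36.8% of all tested genes were lower without overlap), and IgG libraries at 4 Gy all above those at 0 Gy (6.37% were higher). Within 4 Gy limma gave -0.75 ± 0.24 (adjusted p = 0.0488), a call that was lost in 21 of 24 other settings (adjusted p up to 0.655). The dose differences were -0.06 ± 0.17 for 4 Gy minus 0 Gy (adjusted p = 0.803), 0.24 ± 0.16 for 8 Gy minus 4 Gy (adjusted p = 0.266) and 0.17 ± 0.16 for 8 Gy minus 0 Gy.

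Per kilobase of annotated exon, which allows levels of different genes to be compared, the order over the 16 libraries was Ccl21a (12.5 ± 9.26 CPM per kb, SD), Lyve1 (10 ± 3.27), Vegfc (5.26 ± 1.19), Vegfd (4.73 ± 1.49), Flt4 (2.01 ± 0.998), Prox1 (0.838 ± 0.314) and Mmrn1 (0.326 ± 0.24). Ccl21a and Lyve1, and likewise Vegfc and Vegfd, did not differ beyond their spread. At 8 Gy the order was another one. With anti-PD-1 Ccl21a had 4.02 ± 1.98 CPM per kb (n = 3), under Lyve1 at 7.59 ± 0.42 and Vegfc at 6.11 ± 0.86 and within the spread of Vegfd at 4.42 ± 0.666. With IgG Ccl21a had 1.81 ± 0.122 CPM per kb (n = 3), under Lyve1 at 10.6 ± 0.898 and Vegfc at 5.46 ± 0.647. It was within the spread of Vegfd at 2.26 ± 0.518, which ran from 1.68 to 2.7. These values are of the row named Ccl21a alone, which made up 47.4 to 61% of the sum with its copies.

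The dose differences of the 7 genes had both signs. Between 8 Gy and 0 Gy their log2 differences ran from -2.19 (Ccl21a) to 0.17 (Vegfc), 5 of 7 were negative, and the median was -0.46, against -0.09 over all tested genes. Adjusted p passed the threshold for 20.7% of all tested genes in that comparison. For 4 Gy against 0 Gy, 1 of the 6 genes other than Ccl21a passed, Prox1, where 17.5% of all tested genes passed (5.33% higher, 12.2% lower). For 8 Gy against 4 Gy, 3 of these 6 passed, with Flt4 and Vegfd lower and Prox1 higher, where 34.3% of all tested genes passed (17% higher, 17.2% lower). Both comparisons share libraries with the one between 8 Gy and 0 Gy. Leaving out the outlying pair, 0.503% of all genes passed between 4 Gy and 0 Gy, and 12.2% between 8 Gy and 4 Gy, where Mmrn1 and Vegfd were called of the same 6 genes.

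**Figure D3:**
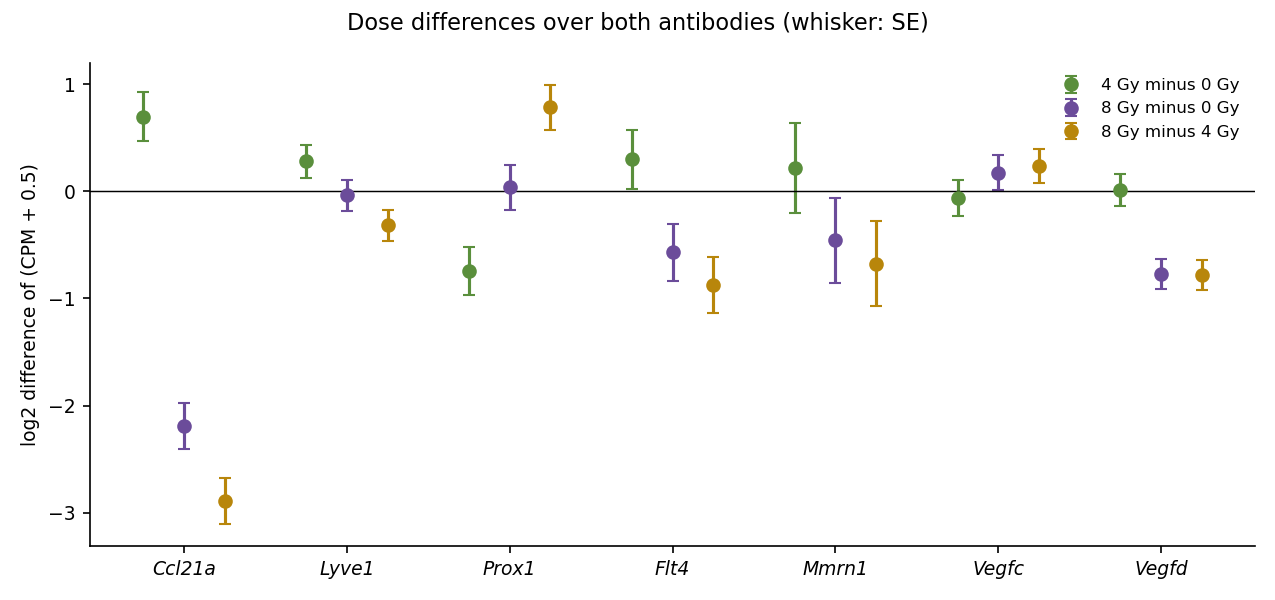
Log2 difference of (CPM + 0.5) over both antibodies (y axis, points, with SE as whiskers) for each gene (x axis), for 4 Gy minus 0 Gy, 8 Gy minus 0 Gy and 8 Gy minus 4 Gy. Ccl21a lies at -2.19 and -2.89 in the comparisons with 8 Gy. Prox1 is below 0 for 4 Gy minus 0 Gy (-1.36 with anti-PD-1 and -0.13 with IgG) and near 0 for 8 Gy minus 0 Gy.

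For the antibody over all doses, limma called 0 of the 7 genes, where 0.234% of all tested genes passed; 3 of the 7, Lyve1, Flt4 and Vegfd, had an unadjusted p under 0.05. Ccl21a differed by 0.15 ± 0.18 (adjusted p = 0.659). At 0 Gy 0 of 7 passed, 1 of 7 had an unadjusted p under 0.05 (Lyve1), and 0.274% of all tested genes passed. At 4 Gy 2 of 7 passed, Prox1 and Vegfc, both lower with anti-PD-1, where 15.5% of all tested genes passed and 8.57% did so as lower. Removal of the outlying pair leaves 1 anti-PD-1 library at that dose, which is assumed to vary like the other groups; limma then called 0 genes of the whole table, while 1166 had an unadjusted p under 0.05. At 8 Gy 0 of 7 passed, 3 of 7 had an unadjusted p under 0.05, and 0.0057% of all tested genes passed.

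Ccl21a at 8 Gy was 0.84 ± 0.29 higher with anti-PD-1 than with IgG (adjusted p = 0.289), with 2 of 3 anti-PD-1 libraries above all 3 IgG libraries. Without replicate 1, the third of them, the difference was 1.24 (limma adjusted p = 0.0377). That fit called 95 genes of the whole table, against 1 with the library kept. The other 23 of 24 settings gave no call for Ccl21a. At 4 Gy Ccl21a was lower with anti-PD-1 in 3 of 3 libraries, by -0.59 ± 0.32 (adjusted p = 0.197), where 25.8% of all tested genes were lower without overlap. The interaction of antibody and dose from 0 to 8 Gy was 0.62 ± 0.43 for Ccl21a (adjusted p = 0.997). From 0 to 4 Gy limma called 0 of the 7 genes in the interaction and gave 3 of 7 an unadjusted p under 0.05, where 9.08% of all tested genes passed. The 3 were Prox1 (-1.23 ± 0.44, adjusted p = 0.0795), Vegfc (-0.97 ± 0.34, adjusted p = 0.0741) and Mmrn1 (-1.80 ± 0.84, adjusted p = 0.146). Without the outlying pair Mmrn1 was at -0.42 (adjusted p = 0.792), and the adjusted p was 0.383 for Prox1 and 0.312 for Vegfc.

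**Figure D4:**
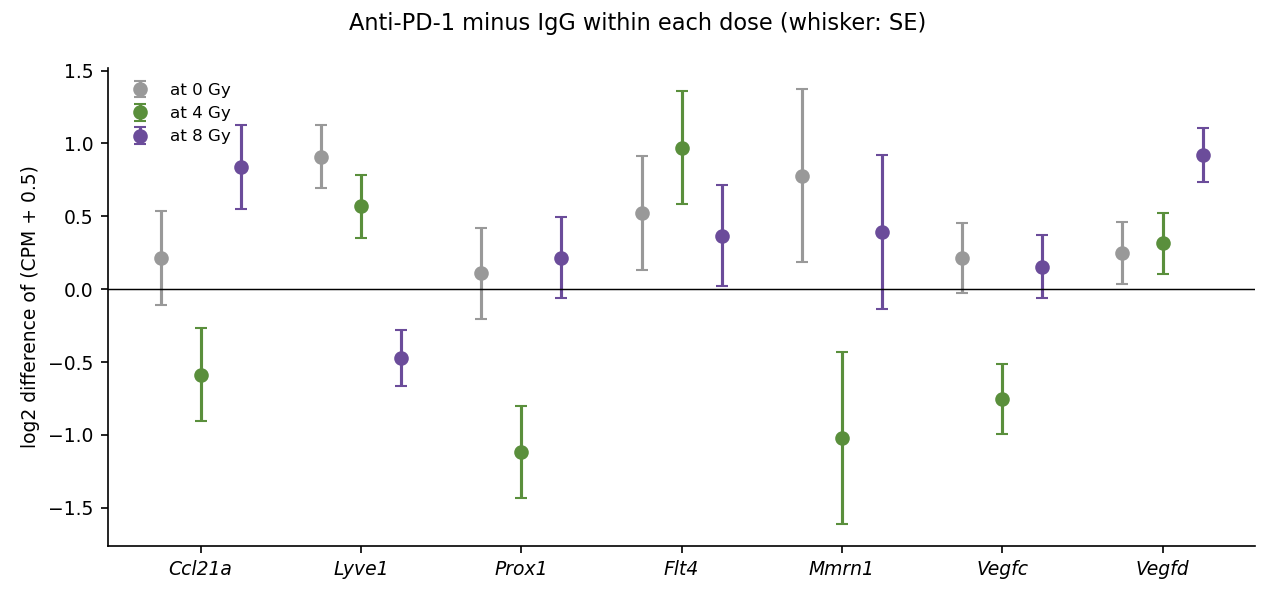
Log2 difference of (CPM + 0.5), anti-PD-1 minus IgG (y axis, points, with SE as whiskers), for each gene (x axis) at 0, 4 and 8 Gy. Lyve1 is above 0 at 0 and 4 Gy and at -0.47 at 8 Gy, while Prox1 and Vegfc lie below 0 at 4 Gy and near 0 at the other doses.

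Other genes known from lymphatic endothelium had differences of both signs, which were mostly negative for 8 Gy against either other dose. Of 16 listed, 13 were tested. The median difference at 4 Gy against 0 Gy was 0.09 against -0.14 over all tested genes. There 1 of the 13 rose and 0 fell, where 5.33% of all tested genes rose and 12.2% fell. The gene was Sox18, a transcription factor that acts upstream of PROX1 in the embryo and is also active in blood vessels. It was at 13.2 to 26.8 CPM at 4 Gy and at 1.91 to 11.6 CPM at 0 Gy, a difference of 1.87 ± 0.36 (limma adjusted p = 0.0116; 0.0855 without the outlying pair). Between 8 Gy and 4 Gy 1 rose and 8 fell, where 17% of all tested genes rose and 17.2% fell. The median was -0.56 against 0.06. Tbx1, a transcription factor gene of lymphatic and other tissues, fell by 2.62 ± 0.42 (adjusted p = 0.000874), the gene Pdpn of podoplanin, a surface protein also of alveolar type 1 cells, by 0.82 ± 0.14 (adjusted p = 0.00111) and Fxyd6 by 1.55 ± 0.27 (adjusted p = 0.00136). The gene that rose was Maf, a transcription factor gene also active in macrophages (0.47 ± 0.14, adjusted p = 0.0197; 0.0788 without the outlying pair). Without the outlying pair 6 fell and 0 rose. At 8 Gy against 0 Gy 6 of 13 were lower and 0 higher past the threshold, in the comparison where 16.1% of all tested genes were lower. The summed level of the list overlapped between doses: it was 269 to 399 CPM at 0 Gy, 321 to 382 CPM at 4 Gy and 269 to 362 CPM at 8 Gy. Each gene's mean over the 16 libraries was also subtracted from its log2 values. The list's median was then -0.26 to 0.60 at 0 Gy, 0.10 to 0.46 at 4 Gy and -0.46 to -0.10 at 8 Gy.

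A list of 16 further genes, all tested, held VEGF ligands, receptors and processing enzymes together with the angiopoietin and TIE genes Angpt1, Angpt2, Tek and Tie1. At 4 Gy against 0 Gy 2 of the 16 rose and 0 fell (median 0.15), where 5.33% of all tested genes rose and 12.2% fell. They were Tie1, an endothelial receptor tyrosine kinase gene, by 1.5 ± 0.43 (limma adjusted p = 0.0334), and Kdr, which encodes VEGFR-2, by 1.26 ± 0.41 (adjusted p = 0.0481). With the outlying pair left out limma called 0 of the 16 in that comparison, and 5 had an unadjusted p under 0.05. Between 8 Gy and 4 Gy 0 rose and 8 fell (median -0.45), where 17% of all tested genes rose and 17.2% fell, led by Tie1 at -2.35 ± 0.41 (adjusted p = 0.00134), Vegfa, the main growth factor of blood vessels, at -1.38 ± 0.26 (adjusted p = 0.00194), and Pcsk5, which encodes a proprotein convertase, at -1.36 ± 0.27 (adjusted p = 0.00278). Without the pair 5 fell. At 8 Gy against 0 Gy 4 of 16 were lower and 0 higher past the threshold (median -0.30), where 16.1% of all tested genes were lower.

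Among 12 blood endothelial markers, 7 rose and 0 fell at 4 Gy against 0 Gy (median 1.00 against -0.14 over all tested genes, of which 5.33% rose and 12.2% fell). Plvap, a diaphragm protein of fenestrated vessels, differed by 1.89 ± 0.42 (limma adjusted p = 0.0164), the apelin receptor gene Aplnr by 1.02 ± 0.24 (adjusted p = 0.0191) and the endomucin gene Emcn by 1.24 ± 0.30 (adjusted p = 0.0213). With the outlying pair left out limma called 0 of the 12, and 9 had an unadjusted p under 0.05. For 8 Gy against 4 Gy 0 rose and 11 fell (median -1.79), or 10 without the pair, where 17.2% of all tested genes fell. They were led by Aplnr at -1.84 ± 0.23 (adjusted p = 0.000229), Emcn at -1.75 ± 0.28 (adjusted p = 0.000975) and Gpihbp1, which anchors lipoprotein lipase in capillaries, at -2.05 ± 0.34 (adjusted p = 0.00106). At 8 Gy against 0 Gy 3 of 12 were lower and 0 higher past the threshold, where 16.1% of all tested genes were lower.

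The other ligand of CCR7 was highest at 4 Gy. Ccl19 was at 0.904 and 0.907 CPM with anti-PD-1 and 1.64, 0.489 and 1.81 CPM with IgG at 0 Gy. At 4 Gy Ccl19 was at 3.24, 3.22 and 2.95 CPM with anti-PD-1 and 2.86 and 4.80 CPM with IgG. At 8 Gy Ccl19 was at 0.5, 1.03 and 0.935 CPM with anti-PD-1 and 0.299, 0.496 and 0.754 CPM with IgG. Its 4 Gy libraries were above all others, and its 8 Gy and 0 Gy libraries overlapped. By limma Ccl19 rose by 1.34 ± 0.25 at 4 Gy against 0 Gy (adjusted p = 0.01; 0.0854 without the outlying pair) and fell by 1.78 ± 0.23 at 8 Gy against 4 Gy (adjusted p = 0.000334; 0.00729 without the pair).

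Of the 10 genes of the CCR7 axis and lymphoid chemokines, all tested, 1 rose and 1 fell at 4 Gy against 0 Gy (median 0.04). Of all tested genes 5.33% rose and 12.2% fell there. Cxcl13, the B cell chemokine gene, fell by 1.65 ± 0.28 (limma adjusted p = 0.0065; 0.0269 without the outlying pair). Between 8 Gy and 4 Gy 2 rose and 1 fell (median -0.04), where 17% of all tested genes rose and 17.2% fell. Cxcl13 rose by 1.00 ± 0.26 (limma adjusted p = 0.0113) and the RANK ligand gene Tnfsf11 by 0.68 ± 0.25 (adjusted p = 0.0448). Without the pair 1 rose and 1 fell. For 8 Gy against 0 Gy limma called 0 of the 10 genes (median 0.03), where 20.7% of all tested genes passed. Of the 10, 1 had an unadjusted p under 0.05. Ccr7, the receptor gene itself, was at 14.2 to 15.7 CPM with anti-PD-1 and 24.1 to 40.1 CPM with IgG at 0 Gy. It was at 16.3 to 25.9 CPM with anti-PD-1 and 17.2 to 26.5 CPM with IgG at 4 Gy, and at 12.5 to 16.9 CPM with anti-PD-1 and 24.3 to 33.2 CPM with IgG at 8 Gy. Over all doses the difference of Ccr7, anti-PD-1 minus IgG, was -0.67 ± 0.15 (adjusted p = 0.0593), which missed the threshold, and 8 Gy minus 0 Gy was -0.09 ± 0.18.

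Cells that could bring lymph node or thymus RNA into a ground lung were looked at through their own markers. The summed level of 7 lymph node and high endothelial venule markers was 10.8 to 69.7 CPM at 0 Gy, 19.2 to 27.2 CPM at 4 Gy and 15.9 to 47.1 CPM at 8 Gy. Of these 7, 5 were tested, and limma called 0 at 4 Gy against 0 Gy (1 had an unadjusted p under 0.05), where 17.5% of all tested genes passed. At 8 Gy against 4 Gy 0 rose and 1 fell, where 17.2% of all tested genes fell. It was Chst4, a sulfotransferase gene of these venules (-1.22 ± 0.41, limma adjusted p = 0.0345). Without the outlying pair Chst4 came to -1.15 ± 0.53, and the call was lost. The venule genes Glycam1 and Madcam1, which were too low to be tested, were at no more than 0.269 and 0.460 CPM. The summed level of this list thus came almost entirely from the 5 tested markers. Thymus markers summed to 1.58 to 3.47 CPM at 0 Gy, 0.962 to 3.47 CPM at 4 Gy and 1.97 to 3.00 CPM at 8 Gy. Psmb11, Rag1, Ptcra and Aire, which were too low to be tested, were at no more than 0.0625, 0.207, 0.188 and 0.460 CPM. Of the thymus markers 2 were tested and 0 passed in any of the 3 dose comparisons (unadjusted p under 0.05 for 1 of 2 between 8 Gy and 4 Gy). Of all tested genes 17.5% passed between 4 Gy and 0 Gy, 20.7% between 8 Gy and 0 Gy and 34.3% between 8 Gy and 4 Gy. For both the node and the thymus list the sums at 8 Gy and 0 Gy overlapped. Between these doses 1 of the 5 tested venule or node markers, Chst4, was lower past the threshold, where 16.1% of all tested genes were lower.

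Among the remaining lists, interstitial macrophage markers had 1 gene up, Gas6 (0.96 ± 0.23, limma adjusted p = 0.0213), and 1 down, Cd163 (-1.30 ± 0.34, adjusted p = 0.0254), at 4 Gy against 0 Gy. Of all tested genes 5.33% rose and 12.2% fell there. The macrophage markers had 2 up, Folr2 (1.24 ± 0.24, adjusted p = 0.00241) and Adgre1 (0.63 ± 0.22, adjusted p = 0.0425), and 1 down, Gas6 (-1.26 ± 0.22, adjusted p = 0.00136), at 8 Gy against 4 Gy, where 17% of all tested genes rose and 17.2% fell. Without the outlying pair Adgre1 was at 0.26 (adjusted p = 0.432), which leaves 1 up and 1 down. At 8 Gy against 0 Gy 5 of 12 were higher and 0 lower past the threshold, in a comparison where 4.68% of all tested genes were higher. Lung fibroblast markers had 3 up, Tcf21 (1.52 ± 0.32, adjusted p = 0.0135), Inmt (1.78 ± 0.48, adjusted p = 0.0277) and Col13a1 (1.03 ± 0.29, adjusted p = 0.0306), and 4 down at 4 Gy against 0 Gy. These counts stand beside 5.33% of all tested genes that rose and 12.2% that fell. Between 8 Gy and 4 Gy 6 of the 12 fell and 0 rose, where 17.2% of all tested genes fell, with Col13a1 at -2.18 ± 0.27 (adjusted p = 0.000271), Mfap4 at -2.83 ± 0.36 (adjusted p = 0.000283) and Tcf21 at -2.05 ± 0.30 (adjusted p = 0.000554). With the outlying pair left out limma called 0 macrophage and 0 fibroblast markers at 4 Gy against 0 Gy (5 and 8 had an unadjusted p under 0.05), and 5 fibroblast markers fell at 8 Gy against 4 Gy. Mesothelial markers, 6 genes, had 0 limma calls at 4 Gy against 0 Gy and at 8 Gy against 4 Gy (1 and 2 with an unadjusted p under 0.05). Of all tested genes 17.5% and 34.3% passed in these 2 comparisons. At 8 Gy against 0 Gy 2 of the 6 mesothelial markers were lower, where 16.1% of all tested genes were lower. For the antibody over all doses limma called 0 genes in each of these lists. Genes with an unadjusted p under 0.05 there numbered 3 of 13 other lymphatic genes, 0 of 16 VEGF, angiopoietin and TIE genes, 2 of 10 CCR7 axis genes, 4 of 12 blood endothelial, 3 of 12 macrophage, 3 of 12 fibroblast, 4 of 6 mesothelial, 0 of 5 venule or node and 0 of 2 thymus markers.

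**Figure D5:**
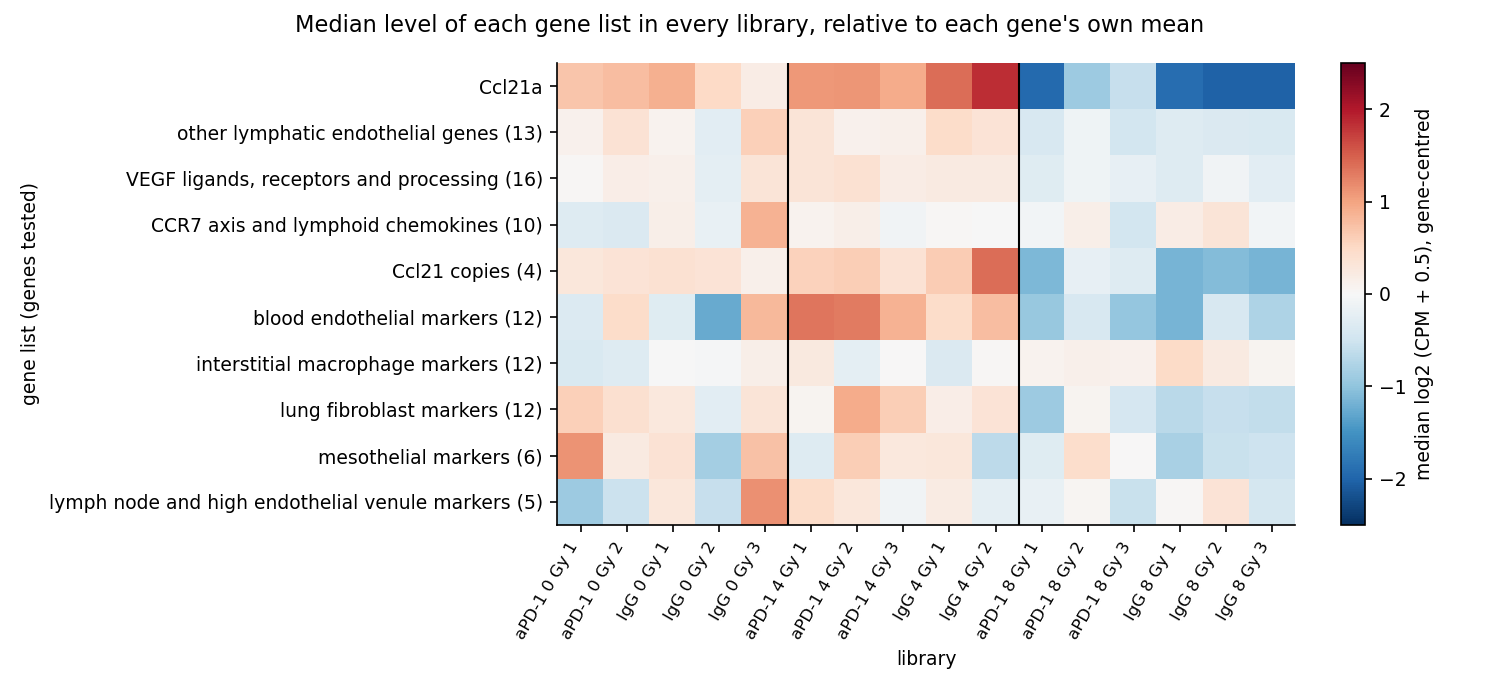
Median over each gene list (rows, with the number of genes tested) of log2 (CPM + 0.5) after subtracting each gene's mean over the 16 libraries (colour), in each library (columns; aPD-1 is anti-PD-1, black lines part the doses). Ccl21a and its copies are lowest at 8 Gy, and blood endothelial markers are highest with anti-PD-1 at 4 Gy.

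The genes whose pattern over the 16 libraries was most like that of Ccl21a were found by the mean absolute difference between gene-centred log2 values, among 13091 genes whose log2 values averaged 1 or more and whose symbols are not of predicted or clone genes. Among the 5 nearest were Cacna1c (0.334), a calcium channel subunit gene of muscle, Spock2 (0.358), a proteoglycan gene, C1qtnf5 (0.389) and Clip4 (0.405), where the median over all candidates was 1.19. Cacna1c was at 3.27 to 8.98 CPM at 0 Gy, 7.57 to 14 CPM at 4 Gy and 0.561 to 3.48 CPM at 8 Gy. Spock2 was at 18.5 to 49.1 CPM at 0 Gy, 49.2 to 107 CPM at 4 Gy and 5.78 to 27.2 CPM at 8 Gy. The Ccl21 copies could not be found this way, because their symbols or their low level kept them out of the candidates. None of the other 6 genes, or of the genes of the other lists that were candidates, was among the 5. Without the outlying pair 3 of the 5 were found again. These genes were chosen for their likeness, which is a description.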

How the data were processed

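RNA was measured in 16 TruSeq libraries, each from 1 µg of total RNA, per the labels' protocols. STAR and Partek were used on build mm10, per the submitters' processing notes. Their versions, the annotation and the handling of strand were not given in the sources used here, so a gene and its overlapping antisense partner may share reads. The deposited values are CPM, to which the authors had added 1e-04. Of the values under 100 reads, 34.9 to 63.1% came out as whole reads (tolerance 0.02), so no count model was used; 3 reads as a floor cover counting error only.

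All 7 genes were among the 17546 tested (at least 1 CPM in at least 2 libraries). log2(CPM + 0.5), which understates changes of low genes, was fitted with limma 3.58.1 in R 4.3.3 (trend, robust) as 6 group means without a block, with version 1.17.8 of the data.table package. Dose differences over both antibodies are the mean of the difference under each antibody. P-values were adjusted by Benjamini-Hochberg over all tested genes, with a threshold of 0.05. Fold changes and log2 differences are ± SE, levels ± SD. The labels do not say that pools of 1 group came from separate experiments, so the spread behind the p-values is that between these libraries. The procedure was run on data simulated with independent genes and no outlying libraries. That run therefore does not show how it behaves on libraries like these.

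The members, 10 further lists (108 symbols, 101 of them present) and tests were chosen with earlier results of these data known. Named besides the members were every listed Ccl21 copy, up to 3 genes per list with the lowest p past the threshold in 4 Gy against 0 Gy and 8 Gy against 4 Gy, and the 5 genes most like Ccl21a, of which 1 is not reported here. Maf, Ccr7 and the examples within sums were added after their values were seen; Sftpc and Scgb1a1 were added to check the tissue. Coordinates follow GENCODE M21. Sequences were read from GENCODE transcripts and RefSeq promoters (6 of 7 genes matched) with Python 3.11.15, pandas 2.3.3 and Biopython 1.88, and figures were drawn with Matplotlib 3.10.9. Alternatives were quantile normalization, equal library medians, no filter, pseudocounts of 0.1 and 1, a replicate block, only the compared groups, an additive model, removal of the outlying pair and removal of each library.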

Additional observations from a re-analysis of the deposited data

Results flagged for a closer look

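Flt4 in replicate 2 of anti-PD-1 at 8 Gy stood at 17 CPM, apart from the other 5 libraries at 8 Gy, which were at 7.52 to 10.9 CPM. The gap was 0.647 of the whole range, above the Dixon limit of 0.625 for 6 samples; 1 of 21 sets examined was marked, and chance alone marks about 1 in 20.

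Lyve1 went in opposite directions from 0 to 8 Gy under the 2 antibodies, without overlap in either: every anti-PD-1 library was lower at 8 Gy and every IgG library higher. The limma interaction was -1.38 with an adjusted p of 0.366, so the difference between the antibodies did not pass the threshold.

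Vegfc went in opposite directions from 0 to 4 Gy: every anti-PD-1 library was lower at 4 Gy and every IgG library higher, without overlap in either. The limma interaction was -0.97 with an adjusted p of 0.0741, which did not pass the threshold.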

How the results depend on the processing

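Of 828 tested differences of the 7 genes under other settings, 745 kept their direction and their side of the threshold, 53 lost a call, 13 gained one and 17 changed sign. These sign changes all concerned differences without a call. Among the 225 differences given with no test, 7 changed sign, all for 8 Gy against 0 Gy, where Lyve1 ran from -0.22 to 0.15 and Prox1 from -0.15 to 0.22. For 4 Gy against 0 Gy, Mmrn1 ran from -0.13 to 0.5 without 1 library, and was below 0 without replicate 1 of anti-PD-1 at 0 Gy (-0.02), replicate 1 of anti-PD-1 at 4 Gy (-0.13) or replicate 2 of IgG at 4 Gy (-0.06). Vegfc came to 0.04 and 0.05 under quantile normalization and equal medians, and ran from -0.19 to 0.06 without 1 library. Vegfd came to -0.03 in the additive model and ran from -0.05 to 0.09 without 1 library. Mmrn1 with antibody over all doses came to -0.02 under quantile normalization and ran from -0.18 to 0.24 without 1 library. Calls were gained for Flt4 and Vegfd over all doses without replicate 3 of IgG at 0 Gy (adjusted p = 0.0296 and 0.0292), for Vegfd over all doses also without replicate 1 of anti-PD-1 at 4 Gy or at 8 Gy (0.0428 and 0.0389), for Flt4 at 4 Gy without replicate 2 or 3 of IgG at 0 Gy or replicate 1 of anti-PD-1 at 4 Gy (0.0343, 0.0436 and 0.0411), for Vegfd and Ccl21a at 8 Gy without replicate 1 of anti-PD-1 (0.0456 and 0.0377), and in the interaction from 0 to 4 Gy for Prox1 and Vegfc without replicate 2 of IgG at 0 Gy (0.0124 and 0.0252) and for Mmrn1 without replicate 1 of anti-PD-1 at 4 Gy (0.0169).

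The numbers of genes called moved more; the cause was not tested. For 4 Gy against 0 Gy 3076 genes were called, 2019 with equal medians, 131 with only the compared groups, 1474 in the additive model, 87 without the outlying pair and 97 to 5748 without 1 library. For 8 Gy against 4 Gy it was 6011, 2117 without the pair and 3566 to 7406 without 1 library. For 8 Gy against 0 Gy it was 3640, and 1983 to 4407 without 1 library. The antibody over all doses had 41, 0 in the additive model or without the pair, and 0 to 1327 without 1 library. At 0 Gy it had 48, 97 without a filter, 0 with only the compared groups and 0 to 95 without 1 library. At 4 Gy it had 2714, 1503 without a filter, 1497 with only the compared groups, 0 without the pair and 0 to 5670 without 1 library. At 8 Gy it had 1, 8 under quantile normalization, 4 with equal medians, 0 without a filter, 6 with a pseudocount of 1, 26 with only the compared groups, 0 without the pair and 0 to 95 without 1 library. The interaction from 0 to 8 Gy had 0, 6 without a filter and 0 to 2 without 1 library. That from 0 to 4 Gy had 1593, 2591 under quantile normalization, 412 without a filter, 0 with only the compared groups or without the pair, and 0 to 4809 without 1 library. In the 65 limma fits with 0 calls, 350 to 5569 genes had an unadjusted p under 0.05.

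Of the calls, 22.6% were higher for 8 Gy against 0 Gy, 44.6% under quantile normalization and 43.5% with equal medians; for 4 Gy against 0 Gy it was 30.4, 55.9 and 59%, and for the antibody over all doses 70.7, 51.9 and 50%. At 0 Gy 43.8% were higher and 33.3% with equal medians, and in the interaction from 0 to 4 Gy 41.4% and 52.2%. Quantile normalization moved the median difference of all genes for 8 Gy against 0 Gy to 0.03, against -0.09 without it.

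Deviations from the group means were correlated between libraries of different groups with the same replicate number. Of these 36 pairs 11 had a correlation above 0.1, and the range was -0.546 to 0.442. Differently numbered libraries were not compared, so these values cannot show whether libraries are paired by number. With the replicate block 9 genes were called for the antibody over all doses, 30 at 0 Gy, 0 at 4 Gy, 1 in the interaction from 0 to 8 Gy and 1 in that from 0 to 4 Gy.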
